A study of Mus musculus with 62 samples.

Results

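The BRWD family of the mouse consists of Brwd1, Phip and Brwd3, and its expression is described here in the forebrain and hippocampus of trisomic Ts65Dn mice. The members were found by gene symbol and Entrez identifier (93871 for Brwd1, 83946 for Phip and 382236 for Brwd3), without use of any measured value, and they are 3 of the 27179 genes in each of the deposited count tables. Each member encodes a large nuclear protein in which WD40 repeats are followed by a pair of bromodomains, modules that bind acetylated histones. BRWD proteins act as substrate receptors of the CUL4-DDB1 ubiquitin ligase, and a Tudor-like module of PHIP recognises methylated histone H3 lysine 4. PHIP was first described as a binding partner of insulin receptor substrates, BRWD1 is required in germ cells and in developing B lymphocytes, and disruptive variants of human PHIP or BRWD3 cause intellectual disability. The question addressed is whether the paralogs Phip and Brwd3 answer to an additional copy of Brwd1, or to the return of Brwd1 to 2 copies in an otherwise trisomic animal.

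PolyA RNA was sequenced from forebrain of embryos (E17.5, in days of gestation) and from hippocampus at 6 weeks, on a mixed DBA/2J x B6EiC3Sn/J background. The 15 forebrain libraries came from 8 euploid and 7 Ts65Dn embryos of mixed sex. The 47 hippocampal libraries came from 8 euploid, 7 Ts65Dn and 8 Ts65Dn;Brwd1+/- males and from 8 females of each of these genotypes. Ts65Dn mice carry additional copies of a distal part of chromosome 16, which holds Brwd1, and of a proximal part of chromosome 17, and euploid animals carry neither. Ts65Dn;Brwd1+/- animals were bred from Ts65Dn mothers and fathers heterozygous for the repro5 mutation of Brwd1, so they hold 3 copies of the segment and 2 intact copies of Brwd1. The counts per gene do not separate reads of the mutant allele from those of the normal one, so a transcript of the mutant copy, if present, is part of the Brwd1 value. No libraries labelled as heterozygous Brwd1+/- without the trisomy were analysed here. In bulk tissue, fewer cells that express a gene and less RNA of it per cell cannot be told apart. The p-values for genotypes weigh a difference between groups against the spread among libraries within the groups of a fit.

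All members lie on the minus strand and on different chromosomes. On mm10, RefSeq places Brwd1 at chr16:95992089-96082703, Phip at chr9:82866159-82981668 and Brwd3 at chrX:108735845-108834362. The longest annotated transcripts have 41, 40 and 41 exons. Aligned coding sequences were 71.1% identical between Brwd1 and Phip (3772 of 5306 aligned positions), 71.5% between Brwd1 and Brwd3 (3732 of 5220) and 69.9% between Phip and Brwd3 (3558 of 5087). Because paralogs can share reads, the annotated transcripts of the members were searched for exact matches. No stretch of 30 bases occurred in more than 1 member. The longest run shared by Brwd1 and Brwd3 was 22 bases, the longest shared by Phip and Brwd3 was 23 bases, and the longest shared by Brwd1 and Phip was 18 bases. Only exact matches on the same strand were searched, so places where a read matches a pair of members with mismatches were not looked for. The coding windows around the longer runs are shown, with the shared run in capitals and 20 bases on each side in lower case.
Brwd1, exons 15 and 16, chr16:96052525-96052538 and chr16:96047440-96047447: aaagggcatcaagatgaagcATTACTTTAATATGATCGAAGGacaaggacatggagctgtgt
Brwd3, exons 15 and 16, chrX:108785647-108785660 and chrX:108784233-108784240: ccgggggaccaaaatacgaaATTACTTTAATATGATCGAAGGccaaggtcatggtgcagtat
Phip, exon 28, chr9:82890430-82890452: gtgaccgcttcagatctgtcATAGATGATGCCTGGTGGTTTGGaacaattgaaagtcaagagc
Brwd3, exon 28, chrX:108760368-108760390: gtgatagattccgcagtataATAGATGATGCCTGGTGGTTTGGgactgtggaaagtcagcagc
These coordinates give the capital letters on the minus strand of GRCm38, the assembly of mm10, with transcripts from GENCODE. In the Brwd1 and Brwd3 windows the run spans the same exon junction. The library kit does not mark strand, so reads of antisense Gm15342 within Brwd1 and of 2810403D21Rik over the 5′ end of Brwd3 cannot be told apart from those of the members. The miRNA gene Gm27833 lies within Brwd1 on the same strand, so strand would not separate its reads either.

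Library totals ran from 14.9 to 137.1 M reads, and the members drew between 146 reads (Brwd3, 1 euploid embryo) and 18312 reads (Brwd1, 1 female Ts65Dn;Brwd1+/- animal) per library. The median of the triplicated genes other than Brwd1, as a log2 ratio to euploid, ran from 0.564 to 0.598 in Ts65Dn embryos. In 4 adult libraries labelled as trisomic it was near 0, between 0 and 0.039, and these carried no sign of the third copy (male Ts65Dn B145, male Ts65Dn;Brwd1+/- T35 and B138, female Ts65Dn;Brwd1+/- B136). In 2 more libraries, female euploid B85 and male Ts65Dn B88, Xist and Ddx3y went against the labelled sex. Female euploid B125 and female Ts65Dn;Brwd1+/- B176 stood apart by low counts of long genes. Over 592 genes with transcripts of at least 9000 bases, the median deviation from the group mean was -0.872 in B125 and -0.728 in B176, against -0.229 to 0.218 in the other 45 adult libraries. The members belong to such long genes, with longest transcripts of 9843, 10756 and 11619 bases. Summed astrocyte markers were 2715 CPM in B125 and 2440 in B176, below the 3300 to 4644 of the other libraries, and the other cell type lists lay within their range. That range was widest for choroid plexus markers, from 149.9 to 9852 CPM, with 7271 in B125 and 7957 in B176. The part of choroid plexus content in the values of the members was not tested. Marker lists of excitatory neurons and hippocampal principal cells had counts in every adult library. The results below are given with all libraries and, where a call changes, without these 8.

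Brwd1 was the highest of the members and Brwd3 the lowest in every group. In euploid E17.5 forebrain, Brwd1 ran from 7.38 to 7.58 on the log2 CPM scale (median 7.55), Phip from 6.78 to 7.49 (7.22) and Brwd3 from 3.30 to 4.57 (4.06), so the levels of Brwd1 and Phip overlapped and Brwd3 was far below both. In euploid hippocampus of males, Brwd1 ran from 6.60 to 6.99 (6.74), Phip from 5.73 to 6.11 (5.99) and Brwd3 from 2.98 to 3.93 (3.38), with no overlap between members. Levels of different genes can be compared only per length. Per kilobase of all annotated exons, the euploid mean of Brwd1 exceeded that of Phip by 2.04-fold in forebrain and 3.03-fold in hippocampus, and that of Brwd3 by 6.99-fold and 6.60-fold. Per kilobase of the longest transcript, the same comparisons gave 1.36-fold and 2.01-fold over Phip and 13.2-fold and 12.4-fold over Brwd3. The order of the members was the same under both lengths, while the size of the gaps was not. Values differed between forebrain and hippocampus for each member, but stage and tissue changed together. Any difference of sequencing run could not be told apart from them, so no test was made between forebrain and hippocampus.

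**Figure D1:**
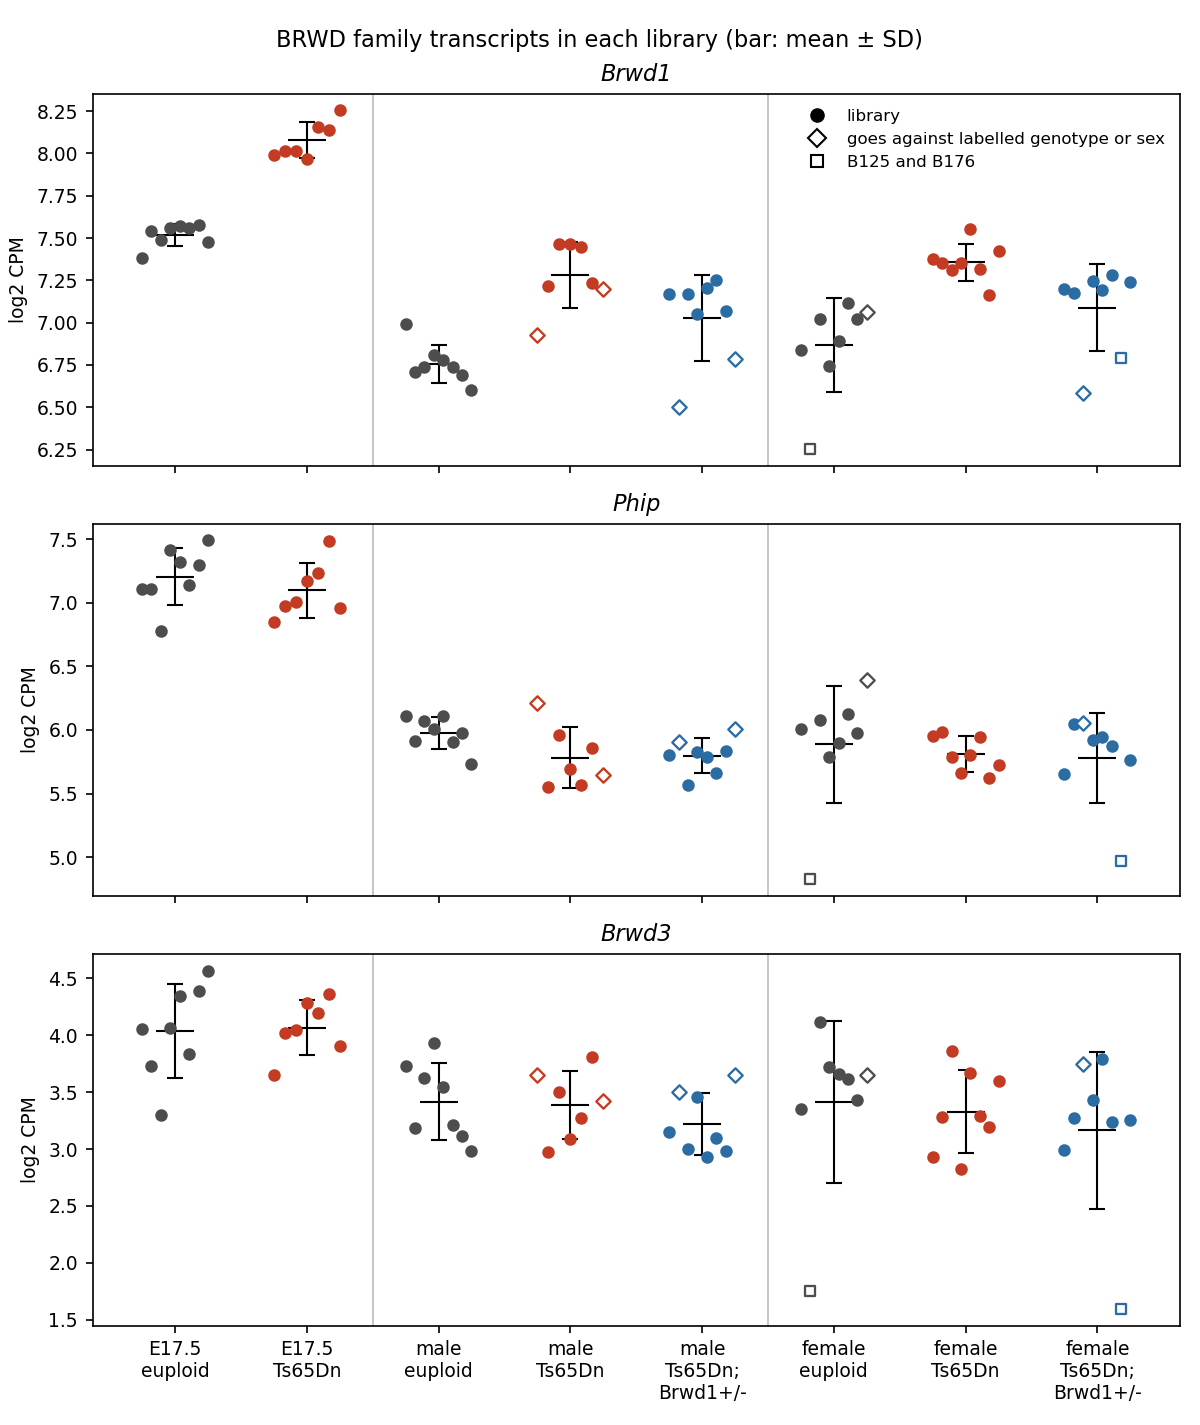
Level of Brwd1, Phip and Brwd3 (log2 CPM, vertical axis) in each of the 62 libraries by group (horizontal axis), with bars for group means and SD squares for B125 and B176, and diamonds for libraries against a label. Ts65Dn embryos lie above all euploid embryos for Brwd1 alone, and B125 and B176 lie far below their groups for Phip and Brwd3.

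In E17.5 forebrain, Brwd1 rose in Ts65Dn embryos and neither paralog passed the test. The 7 Ts65Dn embryos had Brwd1 levels of 7.97 to 8.25 log2 CPM (median 8.02), and each lay above the highest of the 8 euploid embryos. The log2 fold change was 0.56 ± 0.053 (SE), with a 95% interval of 0.45 to 0.67 and an edgeR quasi-likelihood adjusted p of 1.186e-05. This interval includes 0.585, the log2 of 3 over 2 copies. Brwd1 was thus 1 of 3 members called at an adjusted p under 0.1, where 1.35% of the 16395 genes tested were called. Phip, the insulin receptor substrate partner, ran from 6.85 to 7.49 in Ts65Dn embryos (median 7.01), and the groups overlapped, with 2 of 7 embryos above the euploid median. Its log2 fold change was -0.11 ± 0.10 (95% interval -0.33 to 0.11, edgeR adjusted p = 0.653). Brwd3, the X-linked member, ran from 3.65 to 4.36 in Ts65Dn embryos (median 4.05), with 3 of 7 above the euploid median. The log2 fold change of Brwd3 was -0.003 ± 0.16 (-0.34 to 0.33, edgeR adjusted p = 0.996). The intervals of both paralogs hold neither a rise nor a fall by 0.585. With hidden factors removed by RUVr, which estimates unwanted variation from residuals, and 3 factors in DESeq2, the Phip value of -0.10 reached an adjusted p of 0.0476, where 24.7% of genes were called. With the level of the Y-linked Ddx3y as a covariate it was -0.039 and not called (edgeR adjusted p = 0.896), and Brwd3 was 0.118 and not called. Xist was 4.04 log2 CPM or less in euploid embryos 3 and 6 and Ts65Dn embryos 1, 2 and 7. It was at least 10.36 in the rest, so the groups differed in their mix of sexes. Over all embryos, summed markers of embryonic forebrain ran from 712.5 to 1569 CPM in euploid and from 248.1 to 1163 CPM in Ts65Dn libraries. Those of excitatory neurons ran from 640.4 to 1776 and from 228.2 to 1394 CPM. Choroid plexus markers ran from 95.33 to 1510 and from 794.9 to 1671 CPM. The part of any of these lists in the Phip value was not tested.

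In adult males, Brwd1 was again higher in Ts65Dn than in euploid animals. The 7 male Ts65Dn libraries ran from 6.93 to 7.47 log2 CPM of Brwd1 (median 7.23), and 6 of them lay above the highest euploid male. The exception by genotype was B145, the library without a sign of the third copy, at 6.93. The log2 fold change was 0.53 ± 0.093 (0.34 to 0.72, edgeR adjusted p = 0.00984), and Brwd1 was the 1 member called, where 0.795% of 16851 genes were. Phip ran from 5.55 to 6.21 in male Ts65Dn libraries (median 5.69), so that 4 of 7 lay below the lowest euploid male and 1, which was B145, above the highest. The Phip log2 fold change was -0.18 ± 0.084 (-0.36 to -0.01), which did not pass over all genes (edgeR adjusted p = 0.523). Without the libraries against their genotype the Phip value in males was -0.27, with an edgeR adjusted p of 0.0744, where 1.16% of genes were called. Without all 8 doubted libraries it was -0.25 and not called (edgeR adjusted p = 0.12). Brwd3 ran from 2.98 to 3.81 (median 3.42), within the range of the euploid males apart from 1 library, with a log2 fold change of -0.036 ± 0.15 (-0.34 to 0.27, edgeR adjusted p = 0.969).

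In adult females the euploid group was wide because of B125. Euploid Brwd1 ran from 6.26 in B125 to 7.12 (median 6.96), and the 8 female Ts65Dn libraries, from 7.17 to 7.55 (median 7.35), lay above every euploid female. The log2 fold change was 0.46 ± 0.11 (0.24 to 0.68, edgeR adjusted p = 0.0243), 1 member called where 3.17% of 17146 genes were. For Phip, euploid females ran from 4.83 in B125 to 6.39 in B85 (median 5.99) and Ts65Dn females from 5.62 to 5.99 (median 5.79). All 8 Ts65Dn females lay below the euploid median of Phip and none below its lowest library. The Phip log2 fold change was -0.13 ± 0.15 (-0.45 to 0.18, edgeR adjusted p = 0.75). Without B125 and B176 it was -0.24, with an edgeR adjusted p of 0.0604, where 17.4% of genes were called. It was not called without all 8 doubted libraries, at -0.17 with an edgeR adjusted p of 0.152, nor without B85, the library against its sex label, at -0.049 (edgeR adjusted p = 0.938). With each library left out in turn the Phip value ran from -0.24 to -0.049 and was called in 0 of 24 fits. Brwd3 ran from 1.75 in B125 to 4.12 in euploid females (median 3.63) and from 2.82 to 3.87 in Ts65Dn females (median 3.28), with 2 of 8 above the euploid median and a log2 fold change of -0.17 ± 0.25 (-0.70 to 0.35, edgeR adjusted p = 0.825).

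Over both sexes, the only member called in Ts65Dn vs. euploid was Brwd1, at 0.50 ± 0.072 (0.35 to 0.65, edgeR adjusted p = 4.34e-06), where 3.4% of the 17427 genes tested were called. The Phip value was -0.15 ± 0.091 (-0.34 to 0.03, edgeR adjusted p = 0.505) and that of Brwd3 -0.099 ± 0.15 (-0.41 to 0.21, edgeR adjusted p = 0.872). The upper bounds of both paralogs, 0.03 and 0.21, lie below 0.585. The call for Phip changed with the libraries. Without B125 and B176, Phip was -0.21 with an edgeR adjusted p of 0.033, where 8.2% of genes were called. Without all 8 doubted libraries, Phip was -0.22 ± 0.052 with an edgeR adjusted p of 0.00912, where 7.82% were called. In the 39 libraries left, Phip averaged 5.98 ± 0.13 (SD, n = 8) in euploid males against 5.72 ± 0.18 (n = 5) in Ts65Dn males, and 5.98 ± 0.12 (n = 6) against 5.81 ± 0.14 (n = 8) in females. Brwd3 in the same 39 libraries was -0.20 with an edgeR adjusted p of 0.349. With all 47 libraries and 3 RUVr factors in DESeq2, Phip was -0.14 with an adjusted p of 0.0251, where 16% of genes were called. Phip was not called without the libraries against their sex (-0.105, edgeR adjusted p = 0.707), in the animals with identifiers starting with B (-0.14, edgeR adjusted p = 0.63) or without the libraries against their genotype (-0.20, edgeR adjusted p = 0.326).

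**Figure D2:**
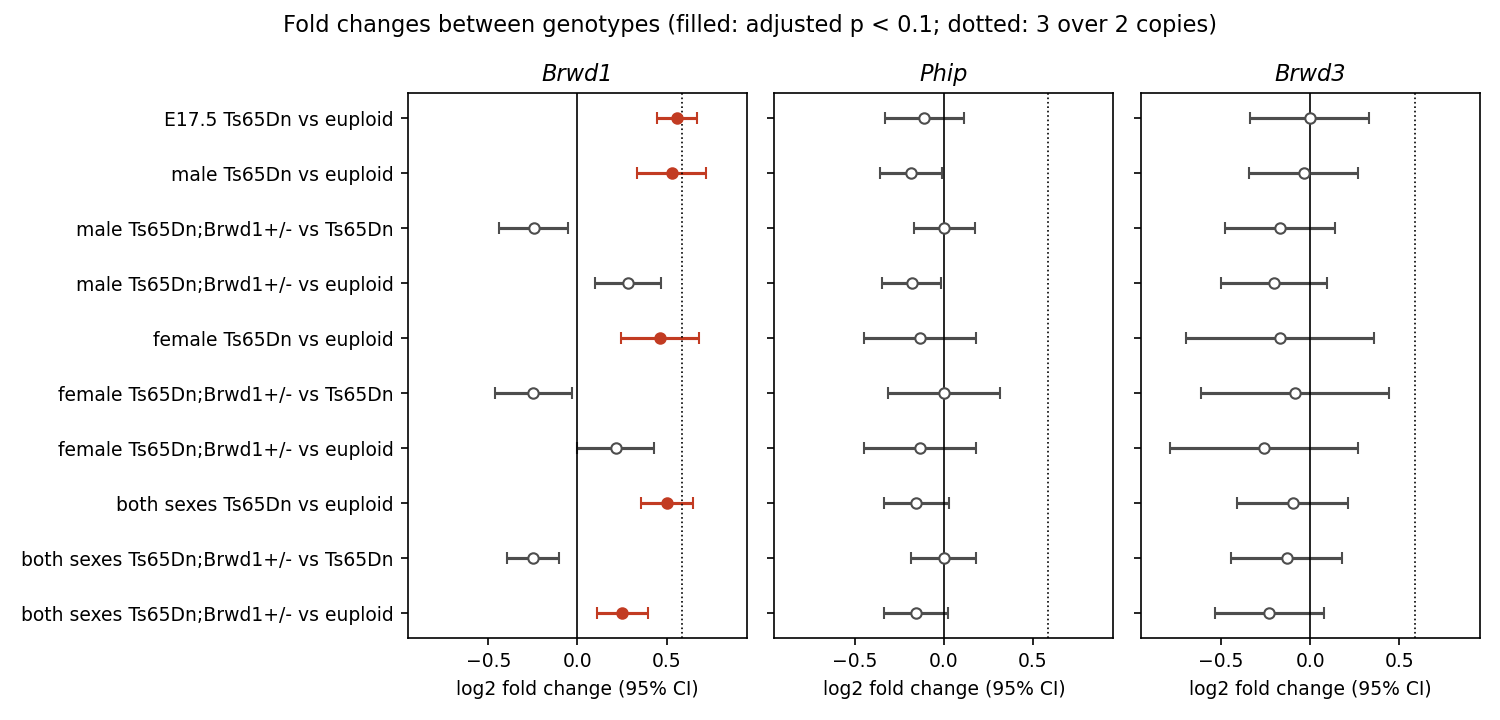
Log2 fold changes (horizontal axis) with 95% intervals of the 3 members (panels) in each comparison of genotypes, with filled symbols at an adjusted p under 0.1 and a dotted line at 0.585, the log2 of 3 over 2 copies. Brwd1 intervals in Ts65Dn vs. euploid reach the dotted line, and the intervals of Phip and Brwd3 all end below it.

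The Brwd1 correction lowered the mean of Brwd1 to between those of Ts65Dn and euploid animals in each sex, without a call over all genes. Male Ts65Dn;Brwd1+/- libraries ran from 6.50 in B138 to 7.26 (median 7.12), with 1 of 8 above the Ts65Dn median, and female ones from 6.58 in B136 to 7.28 (median 7.20), with 0 of 8 above it. Ts65Dn;Brwd1+/- vs. Ts65Dn gave -0.25 ± 0.093 in males (-0.44 to -0.05, edgeR adjusted p = 0.626) and -0.25 ± 0.11 in females (-0.46 to -0.03, edgeR adjusted p = 1). Over both sexes the Brwd1 value was -0.25 ± 0.072 (-0.40 to -0.10, edgeR unadjusted p = 0.00117, adjusted p = 0.523). In each of these 3 comparisons edgeR called 0% of genes, while 1261, 604 and 891 genes had an unadjusted p under 0.05 and DESeq2 with its size factors called 1, 14 and 5 genes. Without B125 and B176 edgeR called 0 genes over both sexes, with 991 under an unadjusted p of 0.05, and without the 8 doubted libraries it called 0, with 787. In those 39 libraries Brwd1 was -0.21 ± 0.062 in males, -0.14 ± 0.056 in females and -0.17 over both sexes (edgeR unadjusted p = 0.000304, adjusted p = 0.546), none of them called. DESeq2 with 3 RUVr factors called Brwd1 at -0.25 with an adjusted p of 0.00179, where 9.16% of genes were called.

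Neither paralog was called with the correction by edgeR. Phip in Ts65Dn;Brwd1+/- animals ran from 5.56 to 6.01 in males (median 5.81) and from 4.97 in B176 to 6.05 in B136 in females (median 5.90), and both ranges overlapped those of Ts65Dn animals. Ts65Dn;Brwd1+/- vs. Ts65Dn gave Phip 0.003 (-0.17 to 0.18) in males, 0.001 (-0.31 to 0.32) in females and -0.001 (-0.18 to 0.18, edgeR adjusted p = 0.999) over both. Brwd3 ran from 2.93 to 3.65 in males (median 3.13) and from 1.60 in B176 to 3.79 in females (median 3.26). Its values in the same comparison were -0.17 (-0.48 to 0.14, edgeR adjusted p = 0.838) in males, -0.087 (-0.61 to 0.44) in females and -0.13 (-0.44 to 0.18, edgeR adjusted p = 0.941) over both. The intervals of Brwd3 are wide enough to hold a fall as large as that of Brwd1, and those of Phip over both sexes are not. With 3 RUVr factors in DESeq2 the Brwd3 value over both sexes was -0.19 (adjusted p = 0.0904), and edgeR with 3 factors gave -0.18 (adjusted p = 0.149). Without all 8 doubted libraries Phip was 0.042 and Brwd3 -0.13, both uncalled.

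Against euploid animals, Brwd1 was higher in the corrected animals over both sexes, and with all libraries it was not called in either sex alone. Without all 8 doubted libraries it was called in males at 0.393 (edgeR adjusted p = 0.000152) and in females at 0.278 (edgeR adjusted p = 0.0186). With all libraries, the log2 fold change in males was 0.28 ± 0.091 (0.10 to 0.47, edgeR adjusted p = 0.231), where 0.576% of genes were called. Of these males, 6 of 8 lay above the highest euploid male, and the others were T35 and B138, which lacked the sign of the third copy. Without B138 alone the log2 fold change was 0.35 and was called in males (edgeR adjusted p = 0.0254), where 0.877% of genes were. In females with all libraries it was 0.21 ± 0.11 (-0.003 to 0.43, edgeR adjusted p = 0.453), where 0.729% were called. Here too 6 of 8 lay above the highest euploid female. The others were B136, without the sign of the third copy, and B176, which stood apart by low counts of long genes. Over both sexes Brwd1 was called at 0.25 ± 0.071 (0.11 to 0.39, edgeR adjusted p = 0.0476), where 3.72% of genes were called. Phip was -0.16 ± 0.089 (-0.34 to 0.02, edgeR adjusted p = 0.411) and Brwd3 -0.23 ± 0.15 (-0.54 to 0.08, edgeR adjusted p = 0.497). Without B125 and B176 Phip was called at -0.16 (edgeR adjusted p = 0.0934), where 10.1% of genes were. Without the 8 doubted libraries all 3 members were called, where 12.1% of genes were, with Brwd1 at 0.34 (edgeR adjusted p = 2.97e-07), Phip at -0.17 (edgeR adjusted p = 0.0333) and Brwd3 at -0.33 (edgeR adjusted p = 0.0788). DESeq2 with 3 RUVr factors on all libraries called Phip at -0.15 (adjusted p = 0.00808) and Brwd3 at -0.23 (adjusted p = 0.0139), where 22.8% of genes were called. This comparison and Ts65Dn vs. euploid share the euploid libraries, so the like values of Phip in both are not independent.

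The libraries against their genotype label stood high in their groups for the paralogs. Phip was 6.21 in B145, 6.01 in T35 and 6.05 in B136, each the highest of its group, and 5.91 in B138, the second highest of 8. Brwd3 ranked first in T35 and second in the other 3. Brwd1 was the lowest or second lowest of the group in all 4. As a log2 ratio to the euploid mean of the same sex, Brwd1 was -0.287 in B136, -0.253 in B138, 0.032 in T35 and 0.173 in B145. Whether any of the 4 carried the Brwd1 mutation was not tested. These libraries were set apart by triplicated genes other than Brwd1, and they were not regrouped.

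No member was called for a difference between the sexes in its response to genotype. The difference of the female from the male log2 fold change in Ts65Dn vs. euploid was -0.06 for Brwd1 (-0.35 to 0.23), 0.06 for Phip (-0.31 to 0.42) and -0.13 for Brwd3 (-0.75 to 0.49), and for Ts65Dn;Brwd1+/- vs. Ts65Dn it was -0.007, -0.008 and 0.076. For Brwd1 the difference in Ts65Dn vs. euploid was -0.14 ± 0.13 without B125 and B176 (edgeR adjusted p = 0.599) and -0.20 ± 0.083 without all 8 doubted libraries (edgeR unadjusted p = 0.0228, adjusted p = 0.253), neither of them called. In both interactions edgeR called 0% of genes, with 1935 and 650 genes at an unadjusted p under 0.05, and DESeq2 with its size factors called 94 genes and 1 gene. Averaged over genotypes, females differed from males by 0.087 for Brwd1 (-0.03 to 0.21, edgeR adjusted p = 0.443), by -0.006 for Phip (-0.15 to 0.14) and by 0.023 for the X-linked Brwd3 (-0.23 to 0.28, edgeR adjusted p = 0.953). None of the 3 was called in a comparison in which 7.36% of genes were.

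Brwd1 took a larger median share of the family's reads in Ts65Dn than in euploid groups. This share is free of library scaling, is a description without a test, and rests on the same counts as the fold changes. Of all reads of the family, Brwd1 took 46.7 to 60.0% in euploid embryos (median 51.8%) and 58.5 to 68.7% in Ts65Dn embryos (median 64.1%), and the groups overlapped at their edges. In males it took 57.3 to 61.4% in euploid (59.5%), 58.5 to 75.4% in Ts65Dn (70.8%) and 56.02 to 72.2% in Ts65Dn;Brwd1+/- animals (68.2%). Females ran from 58.1 to 70.6% in euploid (61.6%), from 69.04 to 73.95% in Ts65Dn (70.8%) and from 54.5 to 76.3% in Ts65Dn;Brwd1+/- animals (68.8%). The lowest Ts65Dn male and the lowest corrected animals were B145, B138 and B136, which lacked the sign of the third copy, and the highest euploid and corrected females were B125 and B176. The summed family level was 349.6 ± 29.6 CPM (SD, n = 8) in euploid and 425.8 ± 35 (n = 7) in Ts65Dn embryos. In males it was 182.6 ± 15.4 (n = 8) in euploid, 223.0 ± 17.4 (n = 7) in Ts65Dn and 197.4 ± 16.3 (n = 8) in Ts65Dn;Brwd1+/- animals. In females it was 191.7 ± 38.3 (n = 8) in euploid, 231.0 ± 15.5 (n = 8) in Ts65Dn and 203.7 ± 28.5 (n = 8) in Ts65Dn;Brwd1+/- animals. Euploid females ran from 108.3 CPM in B125 to 230.3 in B85.

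**Figure D3:**
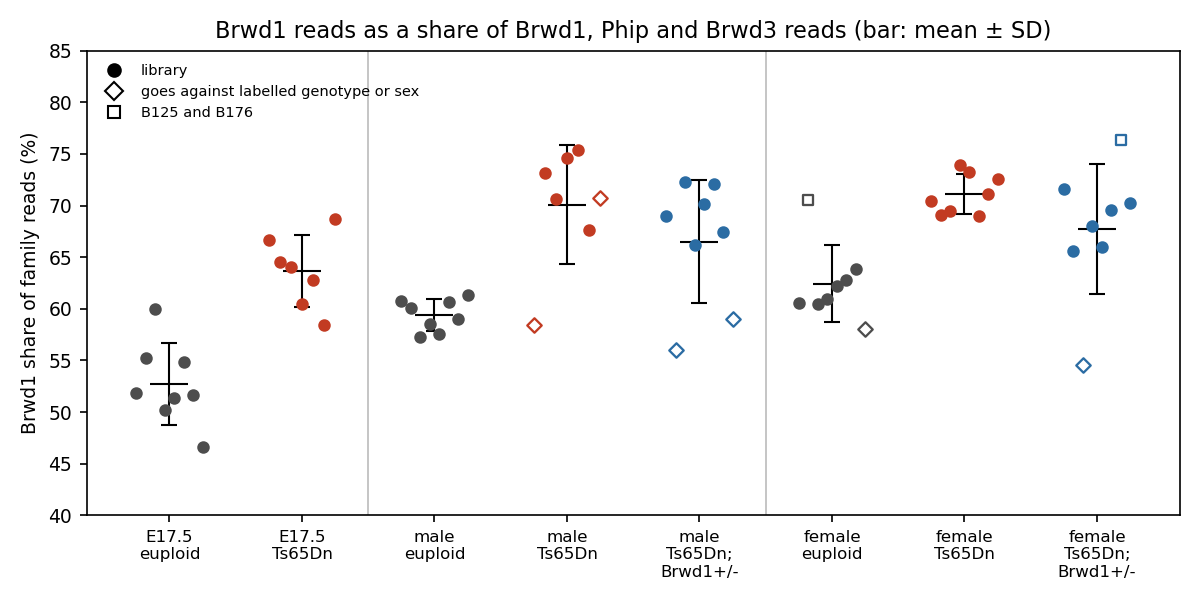
Brwd1 as a percentage of the reads of the 3 members (vertical axis) in each library by group (horizontal axis), with bars for mean and SD, squares for B125 and B176, and diamonds for libraries against a label. The Ts65Dn medians lie at 64.1, 70.8 and 70.8% and the euploid medians at 51.8, 59.5 and 61.6%.

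Genes next to Brwd1 on chromosome 16, which the cross leaves in 3 copies, were set beside it. The 5 nearest tested genes on each side are Dyrk1a, Kcnj6, Erg, Ets2 and Psmg1, and Hmgn1, Get1, Lca5l, Sh3bgr and B3galt5. In Ts65Dn vs. euploid over both sexes their median log2 fold change was 0.49, with 9 of 10 called, and Brwd1, at 0.50, lay in their range of 0.27 to 0.58. In Ts65Dn;Brwd1+/- vs. Ts65Dn their median was -0.068, with 0 of 10 called by edgeR, against -0.25 for Brwd1. Of the neighbours, Sh3bgr at -0.35 and Kcnj6, a potassium channel gene, at -0.26 lay below Brwd1 in that comparison, and Psmg1, the nearest on 1 side, was at -0.006 and Hmgn1, the nearest on the other, at -0.075. These values are from all libraries. Among them corrected T35, B138 and B136 and Ts65Dn B145 lacked the sign of the third copy. The segment median averaged 0.433 in corrected against 0.49 in Ts65Dn males, and 0.5 against 0.569 in females. Without all 8 doubted libraries Brwd1 was at -0.17, and the neighbours were not computed. The difference between Brwd1 and its neighbours was not tested. In E17.5 forebrain the neighbours had a median of 0.53, with 7 of 10 called, and Brwd1 was at 0.56.

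**Figure D4:**
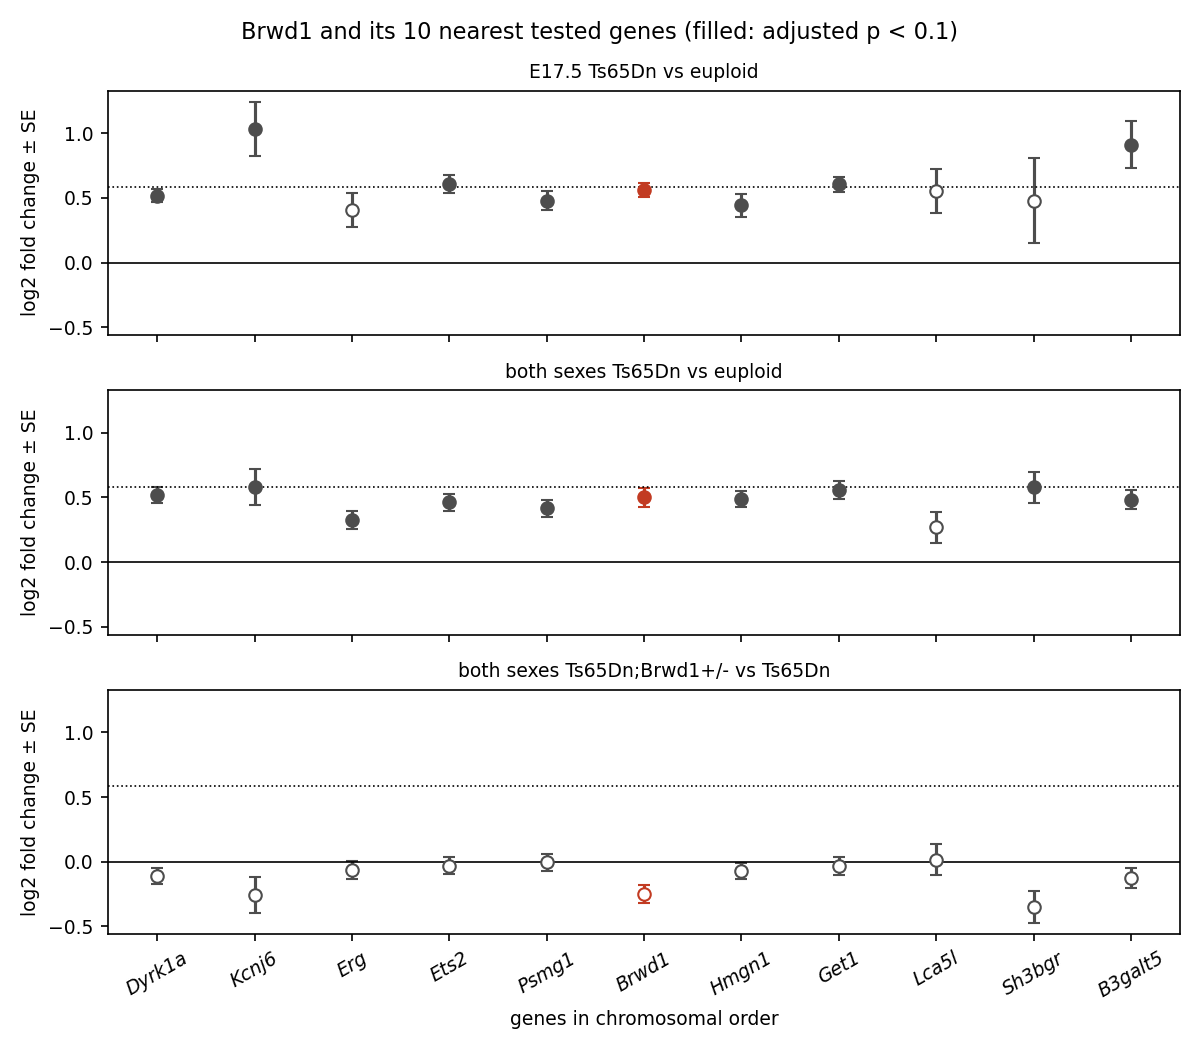
Log2 fold changes (vertical axis) of Brwd1 and of the 5 nearest tested genes on each side, in their order on the chromosome (horizontal axis), in 3 comparisons (panels: Ts65Dn vs. euploid at E17.5, then in adults of both sexes, then the correction of Brwd1), with SE bars, filled symbols at an adjusted p under 0.1 and a dotted line at 0.585. All lie above 0 in Ts65Dn vs. euploid, and with the correction Brwd1 lies at -0.25 while the median of its neighbours is -0.068. All libraries are included, also those without the sign of the third copy.

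Among animals of the same group, Phip and Brwd3 moved together, and neither moved with Brwd1 in a stable way. After removal of group means, Phip and Brwd3 correlated over the 47 adult libraries with a Pearson r of 0.80 and a Spearman rho of 0.58 (permutation p = 1e-05 for r, the smallest that 100000 permutations can give, and 6e-05 after adjustment over 6 relations). Without the 2 libraries farthest on the Phip axis, B125 and B176, r was 0.46 (permutation p = 0.00238), and without all 8 doubted libraries it was 0.41 (permutation p = 0.0195, adjusted 0.0585). Over the 15 embryos r was 0.88 and rho 0.85 (permutation p = 3e-05, adjusted 9e-05), and 0.78 without the 2 farthest (permutation p = 0.0027). Embryo groups are of mixed sex, and the means removed were those of genotype alone. Embryos with low Xist (euploid 3 and 6, Ts65Dn 1, 2 and 7) all lay below their group mean for both Phip and Brwd3. Among those with high Xist, euploid 2 and Ts65Dn 3 did so too. The part of sex in this relation was not tested. The embryo libraries carry 1 of 2 long numbers in their titles, whose meaning is not given. Within these, Phip and Brwd3 gave r of 0.87 (7 embryos with the higher number) and 0.83 (8 with the lower), and within the adult animals with identifiers in B it was 0.81.

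Brwd1 and Phip gave r of 0.34 and rho of 0.19 over adult libraries (permutation p = 0.0631, adjusted 0.122) and Brwd1 and Brwd3 0.30 and 0.11 (permutation p = 0.0814, adjusted 0.122). Both fell to 0.09 without the 2 farthest libraries, turned to -0.17 and -0.20 without B125 and B176, and rose to 0.77 and 0.70 without the 6 libraries against a label, so these relations rest on a few libraries. Without those 6 both relations passed (permutation p = 0.00065 and 0.00235, adjusted 0.000975 and 0.00235). Leaving out the 2 then farthest, B125 and male euploid B95, gave 0.57 (permutation p = 0.00977) and 0.49 (permutation p = 0.0266). Without all 8 they were 0.34 (permutation p = 0.0555, adjusted 0.0833) and 0.23 (permutation p = 0.208, adjusted 0.208). In embryos Brwd1 gave r of 0.26 with Phip (rho 0.36, permutation p = 0.366, adjusted 0.439) and 0.10 with Brwd3 (rho 0.22, permutation p = 0.697, adjusted 0.697). In adult hippocampus the values of Phip and Brwd3 moved with the level of long transcripts as a whole. Across the 47 adult libraries the deviation of the long genes correlated with that of Phip at r of 0.90, of Brwd3 at 0.83 and of Brwd1 at 0.53, given as a description because the members are long genes in the same libraries. Without B125 and B176 these were 0.67 for Phip, 0.45 for Brwd3 and 0.16 for Brwd1, and without all 8 doubted libraries 0.63, 0.43 and 0.78. Across the 15 embryos they were 0.43 for Phip, 0.62 for Brwd3 and 0.26 for Brwd1. The part of transcript length or RNA quality in the relation of Phip and Brwd3 was not tested.

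**Figure D5:**
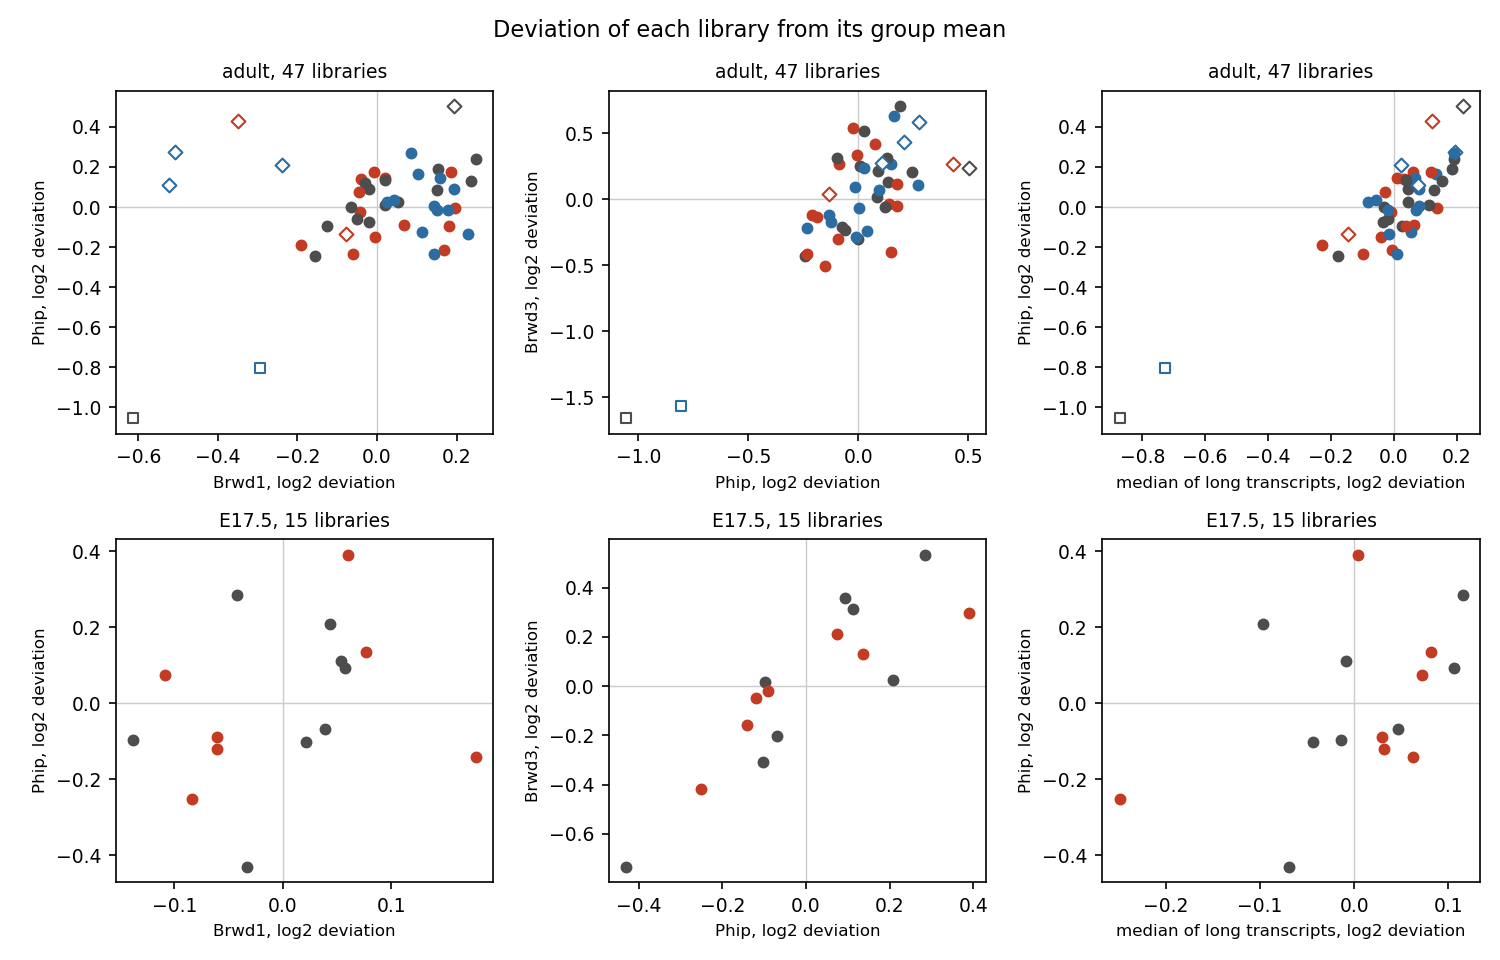
Deviation from the group mean (log2 CPM) of Brwd1 and Phip, of Phip and Brwd3, and of Phip and the median long transcript (columns) in the adult libraries and in the embryos (upper and lower panels), 1 point per library, with squares for B125 and B176, diamonds for libraries against a label, and grey, red and blue for euploid, Ts65Dn and Ts65Dn;Brwd1+/-. Phip and Brwd3 rise together in both stages, and B125 and B176 lie far below the other adult libraries in Phip, Brwd3 and the long transcripts, while B176 lies within the range of the others in Brwd1.

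The genes whose adult pattern was most like each member were ranked by Pearson r over the 47 libraries after removal of group means. For Brwd1 these were Urb1 (0.92), Itsn1 (0.92), Tiam1 (0.91), Dop1b (0.91) and Ltn1 (0.89), and all 5 lie on chromosome 16. Without the 8 doubted libraries, of which 4 lacked the sign of the third copy in groups labelled as trisomic, the values of these genes were 0.60 to 0.75. The 5 genes of each member were not chosen again without those 8. The part of the label conflicts in this likeness was not tested. For Phip they were Tasor2 (0.94), Ube3a, the ubiquitin ligase gene of Angelman syndrome (0.93), Map3k2 (0.93), Nbeal1 (0.93) and Ireb2 (0.92), with 0.69 to 0.80 without those 8. For Brwd3 they were Lrp6, a Wnt co-receptor (0.94), Pcnx (0.91), Tnpo1 (0.90), Arfgef2 (0.90) and Fndc3b (0.89), with 0.71 to 0.85 without them. Brwd3 ranked 542 of 17426 genes in likeness to Phip, which places it in the first 3.1%, and Phip ranked 178 in likeness to Brwd3, in the first 1%. Without the 8 doubted libraries the r of the pair was 0.41, and the ranks were 618 and 790.

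The genes of pathways in which BRWD proteins act were counted beside the share of all genes called in the same comparison. The lists held 20 core and regulatory genes of the CUL4-DDB1 ligase, 21 other substrate receptors of it, 34 other bromodomain genes, 17 genes of H3K4 methylation or demethylation and 16 genes of insulin and IGF receptor signalling, 107 genes with each counted once, and every gene was tested in each comparison. In E17.5 forebrain 0 of these genes were called by edgeR, where 1.35% of all genes were, and the list medians were between -0.10 and -0.038, beside -0.0139 for all genes. In Ts65Dn vs. euploid over both sexes, Dcaf7, a substrate receptor, fell by 0.17 on the log2 scale (edgeR adjusted p = 0.0199) and Brpf3, a bromodomain subunit of histone acetyltransferases, fell by 0.15 (edgeR adjusted p = 0.0414), with 0 genes called in the other lists. These were 1.87% of the listed genes, where 3.4% of all genes were called. In males alone these were joined by Grb10, an adaptor that binds the insulin receptor, which fell by 0.43 (edgeR adjusted p = 0.0781), so that 2.8% of the listed genes were called, where 0.795% of all genes were. In Ts65Dn;Brwd1+/- vs. Ts65Dn edgeR called 0 genes of any list, in either sex or over both. Against euploid animals, the corrected animals of both sexes had lower Brpf3 (-0.14, edgeR adjusted p = 0.0628) and Baz1b (-0.16, edgeR adjusted p = 0.0579). Cops2, a COP9 signalosome subunit, at 0.088 (edgeR adjusted p = 0.0425), and Uba3, of the NEDD8 activating enzyme, at 0.086 (edgeR adjusted p = 0.0628), were higher in the same comparison. The 4 genes were 3.74% of the listed genes, where 3.72% of all genes were called. In corrected vs. euploid males Dcaf7 was the 1 listed gene called, where 0.576% of all genes were. List medians in the adult comparisons over both sexes lay between -0.072 and 0.047.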

How the data were processed

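RNA was sequenced from 15 E17.5 forebrain and 47 hippocampal libraries, 1 per animal. The authors mapped single reads with HISAT2 to mm10 and counted them with featureCounts 2.0.1 (HISAT2 2.1.0 in the submitters' processing notes, which name mm9 too), and they deposited raw counts per gene as whole numbers, without normalization. The study used DESeq2 after RUVr at an FDR of 0.1 and states no number of factors, so neither entered the tests here except as alternatives. The test was edgeR's robust quasi-likelihood test (version 4.0.16, R 4.3.3) after TMM scaling and the filterByExpr filter, whose minimum count is 10, with Benjamini-Hochberg adjustment over all genes tested and calls under 0.1. Levels are log2 CPM with a prior count of 0.5. Male, female and all adult libraries had separate fits. Libraries against their genotype were those with a segment median under 0.3. The alternatives included DESeq2 1.42.0, 1 to 3 RUVr factors, other scaling and filters, and each library left out. Sequences were aligned with Biopython 1.88, and relations used 2-sided permutations within groups. The tests were tested on simulated data. The members and lists were chosen with earlier results of these data known, and the genes named beside them are the 5 most like each member, the 5 neighbours on each side and up to 4 called genes per list. The omission of the 8 libraries and the relations within title numbers and animal identifiers were added after seeing the data. Genes without a RefSeq match (0.3% of adult and 0.805% of E17.5 counts) were kept.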

Additional observations from a re-analysis of the deposited data

Results flagged for a closer look

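Dixon's test at the 95% level was applied to 32 groups of values of 7 or 8 libraries (3 members and the share of Brwd1, in 8 groups). Of these, 6 held a library far from the others. Chance gives this in about 1 of 20 independent groups, but these share libraries and reads, so the 6 cannot be set against that rate. All 6 were in B125 or B176. In female euploid B125, Brwd1 was 6.256 log2 CPM, Phip 4.831 and Brwd3 1.754, each the lowest of its group, and the Brwd1 share of family reads was 70.59%, the highest. In female Ts65Dn;Brwd1+/- B176, Phip was 4.973 and Brwd3 1.597 log2 CPM, each the lowest of its group. The segment median was 0.014 in B125 and 0.563 in B176, as their labels have it, and their totals were 55.9 and 58.7 M reads.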

How the results depend on the processing

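For the 3 members in 13 comparisons, 537 values under other settings were computed, of which 450 kept direction and call, 46 turned in sign and 41 gained a call, and 0 lost one. Values that turned were uncalled with all settings, and their cause was not tested. Brwd1 in Ts65Dn vs. euploid kept its call in every alternative of each stage and sex. Brwd3 at E17.5 turned to 0.001 with DESeq2, 0.118 with the Ddx3y covariate, 0.025 with upper-quartile scaling, 0.007 without the filter, and 0.015, 0.037 and 0.038 with 1, 2 and 3 RUVr factors in edgeR (0.044 with 3 in DESeq2). With the replicate block it was 0.104 and Phip -0.069, not called, a block in which the numbers of the embryos share only a number (same-number correlations of -0.133 to 0.229, with 1 of 7 embryos closest to its own number). In females, Phip with the correction turned to -0.006 with DESeq2, -0.005 with all 6 groups, -0.003 with only the groups compared or upper-quartile scaling, -0.002 without the filter, -0.024, -0.025 and -0.024 with 1 to 3 RUVr factors (-0.032 with DESeq2), -0.033 in animals with identifiers starting with B (animals B), -0.043 without libraries against genotype and -0.005 without those against sex. In males, it turned to -0.028 in animals B and -0.019 without libraries against sex. Over both sexes it turned to 0.001 without the filter, 0.002 with upper-quartile scaling, 0.043 without B125 and B176 and 0.042 without all 8. Brwd3 with the correction in females turned to 0.045 without B125 and B176.

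Phip in females vs. males turned to 0.018 in animals B, 0.005 with upper-quartile scaling, 0.064 without B125 and B176, 0.075 without all 8 and 0.027 without libraries against genotype, and Brwd3 to -0.028, -0.031 and -0.035 with 1 to 3 RUVr factors (-0.032 with DESeq2). The interaction of sex and correction turned for Brwd3 to -0.011 with 2 RUVr factors and -0.002 with 3 in DESeq2, for Brwd1 to 0.033 without B125 and B176, 0.08 without all 8 and 0.003 without libraries against sex, and for Phip to 0.082, 0.043 and 0.013. Phip in the interaction of sex and trisomy turned to -0.059 without B125 and B176.

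Calls were gained mainly with RUVr factors. In edgeR with 1, 2 and 3 factors over both sexes, Brwd1 with the correction was called at -0.248, -0.248 and -0.247 and Phip in corrected vs. euploid animals at -0.141, -0.147 and -0.147. With 2 and 3 factors, Phip in Ts65Dn vs. euploid was called at -0.138 and -0.137, Brwd3 in corrected vs. euploid animals at -0.223 and -0.225, and Brwd1 with the correction in females at -0.244 in each. Brwd1 in corrected vs. euploid females was called at 0.232 with each number of factors. With 3 factors, Phip was called at -0.107 at E17.5, Brwd1 at 0.275 in corrected vs. euploid males and Brwd3 at -0.258 in females. DESeq2 with 3 factors called Phip at -0.104 (E17.5), -0.198 (male Ts65Dn vs. euploid), -0.184 (male corrected vs. euploid), -0.14 (Ts65Dn vs. euploid) and -0.15 (corrected vs. euploid, both sexes), Brwd1 at -0.24 and -0.252 (correction, males and females), 0.274 and 0.232 (corrected vs. euploid) and -0.248 (both sexes), and Brwd3 at -0.256 (females, corrected vs. euploid), -0.185 and -0.227 (both sexes). Without B125 and B176, Phip was called at -0.236 in females, -0.207 over both sexes and -0.164 in corrected vs. euploid animals. Without all 8, Phip was called at -0.216 and -0.174, Brwd3 at -0.33, and Brwd1 in corrected vs. euploid animals at 0.393 in males and 0.278 in females. Without libraries against genotype, Phip in males was called at -0.266 and Brwd1 in corrected vs. euploid males at 0.393.

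Among relations, Brwd1 with Phip and Brwd3 turned to -0.17 and -0.2 without B125 and B176, and to -0.37 and -0.48 within the embryos of the lower title number, and Brwd1 with Brwd3 to -0.04 within those of the higher. They passed at 0.77 and 0.7 without libraries against genotype or sex, and Phip with Brwd3 fell to 0.41 (adjusted p = 0.0585) without all 8. With each library left out in turn, Brwd3 ran from -0.073 to 0.083 at E17.5, from -0.112 to 0.047 in male Ts65Dn vs. euploid and from -0.183 to 0.044 with the correction in females, Phip with the correction from -0.034 to 0.085 in males and from -0.043 to 0.084 in females, and Brwd1 in corrected vs. euploid males from 0.253 to 0.347. Counts of genes called over both sexes ran from 380 to 2796 in Ts65Dn vs. euploid (593 in the report) and from 0 to 1597 with the correction, highest with DESeq2 and 3 RUVr factors. The lowest count behind a member's value was 146 reads, of Brwd3.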
